A study of Mus musculus with 14 samples.

Results

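The genes described here encode ephrins, netrins and Slits, their receptors, and the srGAP proteins that act inside the cell downstream of Robo. They were chosen by gene symbol, with earlier results of these data known. The symbols were those of ephrins (Efna, Efnb), Eph receptors (Epha, Ephb), netrins (Ntn), netrin-G proteins (Ntng), the netrin receptors Dcc, Neo1 and Unc5, the Slits, the Robos and the Srgaps. 44 of the 41934 genes in each table carried such a symbol, and in 43 of them the authors' mean normalized count reached 10 at E13.5 and at E18.5. Ntn5, a little-studied netrin, was the exception, with 8.39 at E13.5 and 8.16 at E18.5.

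The RNA came from whole brains of male C57BL/6J fetuses, littermates from crosses of Dio3+/- mice. At E13.5 there were 4 Dio3+/+ and 2 Dio3-/- fetuses, and at E18.5 there were 3 Dio3+/+ and 5 Dio3-/- fetuses, 14 libraries in all. Dio3-/- mice carry an inactivating mutation in the gene of the type 3 deiodinase, which clears thyroid hormones, in every cell, and they still make its mRNA. The question of the study, how loss of the enzyme changes the fetal brain, cannot be taken up here: the genotype comparison in the tables is the authors' own and was not used, and each table otherwise holds 1 mean per gene over all libraries of the age. What is described is the level of each guidance gene at the 2 ages with the genotypes pooled. The tables used here hold no value of a single library, so no mean has an error, no test was run, and neighbours in an order of levels cannot be told apart by their spread. Dio3-/- fetuses made up 2 of the 6 libraries at E13.5 and 5 of the 8 at E18.5. A difference between the ages and a difference in the mix of genotypes therefore cannot be told apart. The libraries were sequenced in 2 batches. The batch of each library is not given, so the mix of batches cannot be set apart from age either. Dio3 itself had a mean normalized count of 99.0 at E13.5 and 129 at E18.5.

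Growing axons are steered by proteins laid out along their path. Ephrins sit on cell membranes and bind Eph receptor tyrosine kinases on contact, ephrin-A through a lipid anchor and ephrin-B as a transmembrane protein, and the encounter usually repels the axon. Netrins attract axons through Dcc and repel them where Unc5 receptors take part, and Slits repel axons through Robo receptors, so that commissural axons cross the midline once and do not return. Netrin-G proteins are anchored to the membrane and bind netrin-G ligands at synapses, and neogenin (Neo1) binds repulsive guidance molecules as well as netrins.

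The libraries were those of fetal brain with some other tissue. The 5 neuronal markers had mean normalized counts of 2107 to 58675 at E13.5 and of 5543 to 66708 at E18.5. Their median log2 ratio was 0.47 (4 higher, 1 lower). The 5 neural progenitor markers were all lower at E18.5 (median log2 ratio -1.41), while the 4 astroglial markers measured at both ages and the 5 markers of the oligodendrocyte lineage were all higher (medians 1.36 and 1.05). Gfap, a marker of mature astrocytes, had a mean of 4.71 at E13.5 and 501 at E18.5. The 5 endothelial markers had a median log2 ratio of 0.20. The 5 cartilage markers had means of 25.7 to 5728 at E13.5 and of 5.01 to 1859 at E18.5. Col2a1 was the highest of them at E13.5, and had 424 at E18.5. Embryonic red cells (Hbb-y, 21476 and 7.95) were present at E13.5, and liver markers were at most 155 at either age. The median log2 ratio was 0.41 for microglia, -0.60 for fibroblasts and meninges, -1.68 for cartilage, -0.34 for skeletal muscle, -0.89 for red cells, 1.37 for choroid plexus and -0.39 for liver, each over those of 5 markers that were measured at both ages. There were 4 such markers for cartilage and for red cells. Skeletal muscle and liver had 3 each, of which 1 was higher and 2 lower. Markers with a mean below 10 at either age, Hbb-y among them, are left out of these medians. Log2 ratios here and below are E18.5 over E13.5, set to 0 for the median gene. As deposited, the median of 17785 genes with a mean of at least 10 at both ages had a log2 ratio of -0.28. The ages were normalized in separate tables. In whole-brain RNA, fewer cells of a type and less RNA per cell cannot be told apart, and the part that these changes in tissue make-up had in the values below was not tested.

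The largest difference between the ages was that of Robo3, the receptor that precrossing commissural axons use to ignore Slit at the midline, and netrin-1 with its receptor Dcc was also lower at E18.5. Of the 43 guidance genes, 10 were at least 2-fold lower at E18.5 relative to the median gene, which is 23.3%, against 5.61% of all genes. These were Robo3 (ENSMUSG00000032128.15), Epha2 (ENSMUSG00000006445.3), Dcc (ENSMUSG00000060534.16), Ephb4, Ephb3, Ntn1, Slit2, Efnb1, Ephb2 and Ntn4. Another 5 were at least 2-fold higher, namely Epha6 (ENSMUSG00000055540.15), Efna3 (ENSMUSG00000028039.11), Unc5d, Unc5a and Srgap2. Their share, 11.6%, was close to the 12.1% of all genes. All genes here are the 17785 with a mean of at least 10 at both ages, of 18645 that reached it at E13.5. Genes that fell below it at E18.5 are therefore missing from the 5.61%. The other 28 guidance genes lay within 2-fold of the median gene, and the median log2 ratio of the 43 genes was -0.11 (20 higher, 23 lower). The counts depend on the scale of the ages. With the means as deposited 14 were at least 2-fold lower, as Efna1, Efna4, Efna5 and Unc5b joined the 10, and 3 at least 2-fold higher, without Unc5a and Srgap2, while 10.1% and 8.40% of all genes were.

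**Figure D1:**
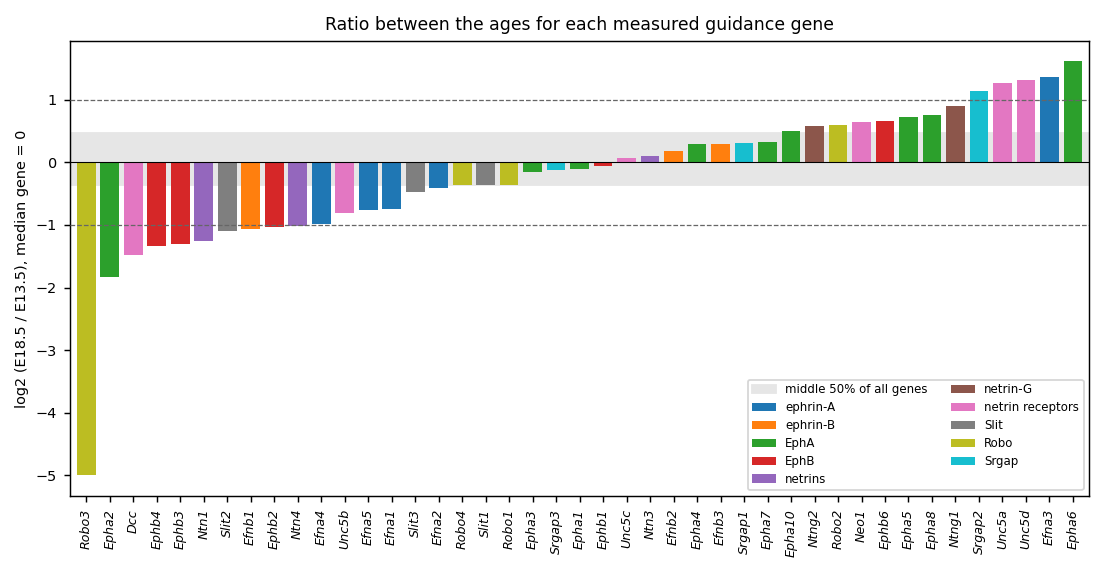
Each bar is the log2 ratio of the authors' mean normalized count at E18.5 over E13.5 for 1 of the 43 measured guidance genes, with the median of all genes at 0, coloured by family. Dashed lines mark 2-fold and the grey band holds the middle 50% of all genes, from -0.36 to 0.47; Robo3 at -5.01 stands apart from Epha2 at -1.83, the next lowest, while the highest, Epha6, is at 1.61.

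**Figure D2:**
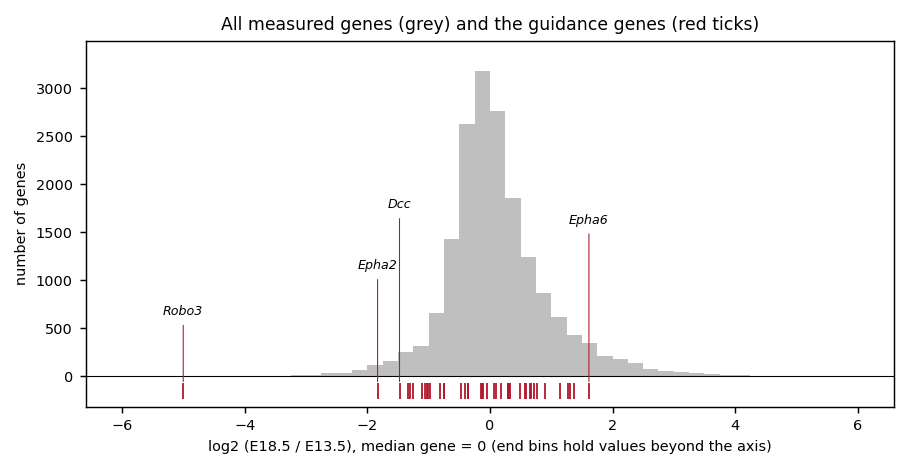
The grey histogram counts genes by their log2 ratio of E18.5 over E13.5 (17785 genes, median at 0), and red ticks mark the 43 guidance genes. Robo3 lies far out in the lower tail, Epha2 and Dcc at its edge, and Epha6 in the upper shoulder.

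Among the 5 ephrin-A genes, ligands held by a lipid anchor, 4 were lower at E18.5 and 1 was higher. Efna5, a ligand best known for mapping retinal and cortical axons, had a mean normalized count of 3154 at E13.5 and 1533 at E18.5, a log2 ratio of -0.76. Efna2, its partner in the retinotectal map, had 1654 and 1027 (-0.40). Efna3 went the other way, with 349 at E13.5 and 740 at E18.5, 2.59-fold higher relative to the median gene. The less abundant Efna1 (121 and 59.1, log2 ratio -0.75) and Efna4 (231 and 96.1, -0.98) were lower, as Efna5 and Efna2 were. Per kilobase of exon, Efna2 and Efna5 had nearly the same level at E13.5, with 776 and 782 counts per kb. Efna3 made up 7.49% of the summed ephrin-A level per kb at E13.5 and 24.2% at E18.5.

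Efnb3, a midline barrier ligand for the corticospinal tract, was the most abundant ephrin at both ages by level per kb, with 1565 counts per kb at E13.5 and 1579 at E18.5. Its mean normalized count was 4982 and 5026, a log2 ratio of 0.30 relative to the median gene. Efnb1, encoded on the X chromosome, had 2801 at E13.5 and 1105 at E18.5 (2.08-fold lower). Efnb2, which acts in axons and in arteries, had 4978 and 4620, a log2 ratio of 0.18 relative to the median gene that is below 0 as deposited. The summed ephrin-B level per kb was 3103 at E13.5 and 2573 at E18.5, 1.01-fold relative to the median gene.

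The EphA receptors, which mostly bind ephrin-A, were mixed: 6 of the 9 were higher and 3 lower at E18.5. Epha4, which also binds ephrin-B and keeps corticospinal axons to their side, led the family at both ages per kb, with 801 counts per kb at E13.5 and 806 at E18.5. Its mean normalized count was 6449 and 6492, a log2 ratio of 0.29 relative to the median gene. The 2 largest differences pointed in opposite directions. Epha6 had 292 at E13.5 and 734 at E18.5, 3.06-fold higher relative to the median gene. Epha2, a receptor found in epithelia and early embryonic tissue, had 303 and 69.8, 3.57-fold lower. Epha5 was the most abundant by count at E18.5 (5497 at E13.5 and 7439 at E18.5, log2 ratio 0.72), but its exons are longer and per kb it stayed below Epha4. Epha7 (3302 and 3401) and Epha3 (3903 and 2884), both receptors of cortical and retinal maps, lay within 2-fold. Epha8 had 688 and 957, and Epha10, whose kinase domain lacks activity, had 388 and 450. Epha1 was low throughout, with 50.7 and 38.6.

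Of the 5 EphB receptors, which bind ephrin-B and act in axon guidance and in synapse formation, 4 were lower and 3 of them by at least 2-fold. Ephb2 had 14833 at E13.5, the highest count of all Eph receptors, and 5961 at E18.5, 2.04-fold lower. Ephb3 had 1313 and 435, 2.48-fold lower. Ephb4, known mainly from veins, had 1330 and 432, 2.53-fold lower. The log2 ratios of the 5 endothelial markers in the same libraries ran from -0.20 to 0.93, against -1.34 for Ephb4. What part endothelial cells, of veins or others, had in the ratio of Ephb4 was not tested. Ephb1 (4729 and 3738) was close to the median gene (log2 ratio -0.06), and Ephb6, a receptor without kinase activity, was higher (1114 and 1452, 0.67). Per kb Ephb2 stood at 1.74 times Ephb1 at E13.5 and at 0.886 times at E18.5. The summed level of EphA over that of EphB was 0.853 at E13.5 and 1.52 at E18.5 per kb. With the length of the longest transcript in place of all exons the former was 1.03, so which class was ahead at E13.5 depends on the length used.

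**Figure D3:**
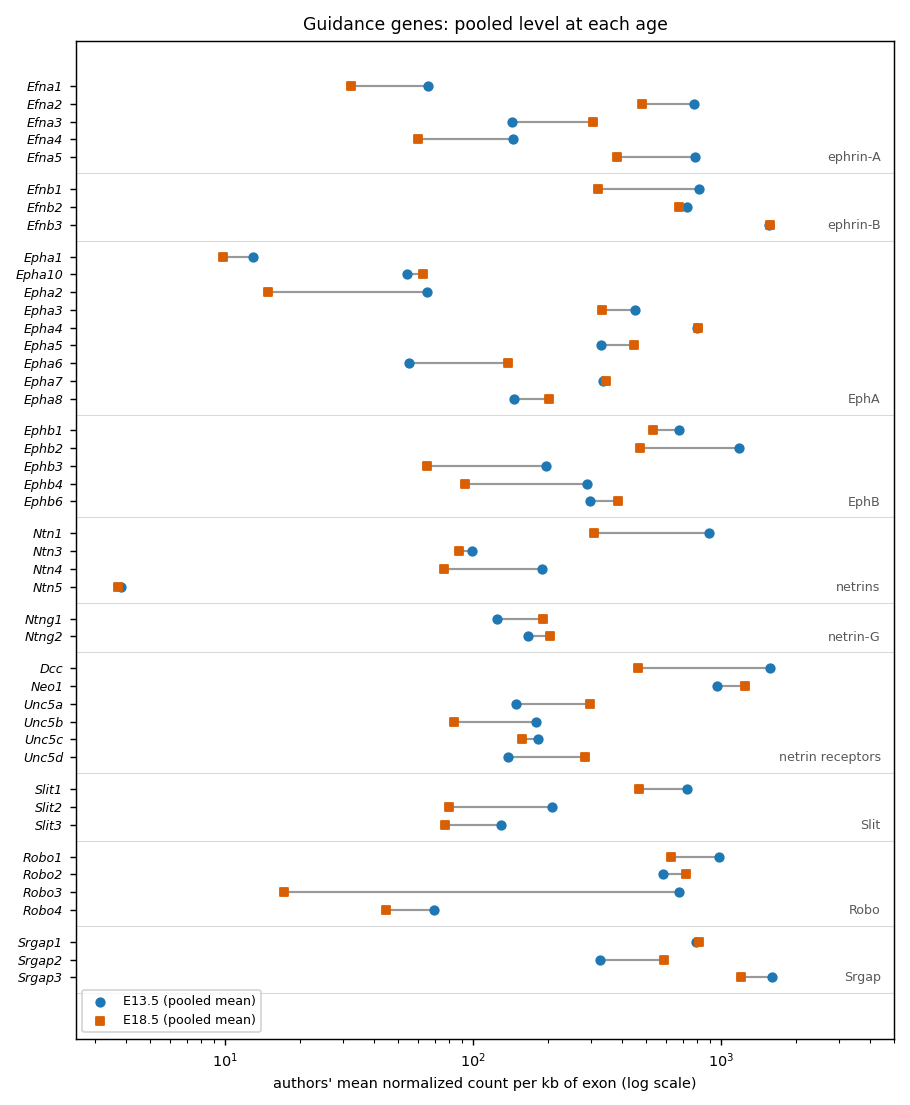
Each row is 1 of the 44 genes, with the authors' mean normalized count per kb of exon at E13.5 (blue circle) and E18.5 (orange square) on a log axis and families set apart. The scale is as deposited at each age; the line between the ages is longest for Robo3, and the 2 points of Efnb3 and of Epha4 lie on each other.

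Netrin-1 and its attractive receptor were both lower at E18.5. Ntn1 had a mean normalized count of 5623 at E13.5 and 1933 at E18.5, 2.39-fold lower relative to the median gene. Dcc had 20713 at E13.5, the highest count of the 44 genes, and 6115 at E18.5, 2.78-fold lower. Neo1, which is related to Dcc in sequence, had 8411 and 10843 (log2 ratio 0.65). Per kb Dcc was at 1.63 times Neo1 at E13.5 and at 0.373 times at E18.5, an order that was the same with the length of the longest transcript (1.76 and 0.403). Dcc made up 49.3% of the summed netrin receptor level per kb at E13.5 and 18.4% at E18.5, and Neo1 30.3% and 49.2%.

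The Unc5 receptors, which turn the response to netrin into repulsion, differed among themselves. Unc5a had 623 at E13.5 and 1237 at E18.5, 2.42-fold higher, and Unc5d, known from migrating cortical neurons, had 1277 and 2609, 2.49-fold higher. Unc5c, the receptor of hindbrain and spinal axons, had 3497 and 3007, close to the median gene (0.07; below 0 with the means as deposited and with the summed per-length scale). Unc5b, which endothelial cells use, had 1117 and 524, 1.75-fold lower. Unc5a and Unc5b had opposite orders per kb at the 2 ages, with Unc5a at 0.837 times Unc5b at E13.5 and 3.54 times at E18.5. Among the other ligands Ntn4, a basement membrane netrin, had 706 and 286 (2.03-fold lower), and Ntn3 had 506 and 447 (log2 ratio 0.11, below 0 as deposited). Both netrin-G genes were higher, Ntng1 with 1029 and 1578 (0.90) and Ntng2 with 667 and 818 (0.58), and Ntng2 had the higher level per kb at both ages.

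**Figure D4:**
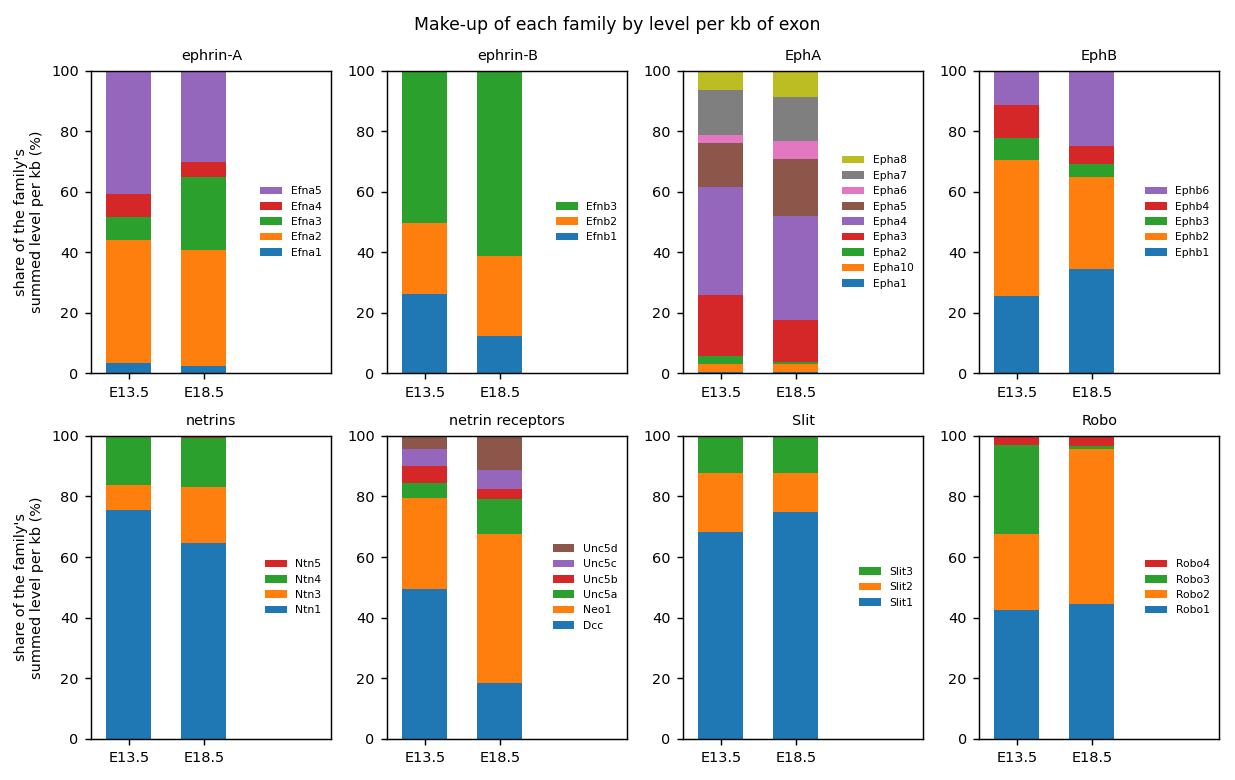
Stacked bars give each gene's share (%) of its family's summed level per kb of exon at E13.5 and E18.5, for the 8 families with at least 3 genes other than Srgap. Robo3 takes 29.3% and then 1.22% of the Robo level, Dcc 49.3% and 18.4% of the netrin receptors, and Efna3 7.49% and 24.2% of ephrin-A.

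All 3 Slit genes, the secreted repellents, were lower at E18.5. Slit2 had 5312 at E13.5 and 2031 at E18.5, 2.15-fold lower. Slit1 had 4325 and 2765 (log2 ratio -0.36) and Slit3 had 787 and 467 (-0.47). Per kb of all exons Slit1 held 68.3% of the Slit level at E13.5 and 74.9% at E18.5. At E13.5 Slit2 had the higher count, so the lead of Slit1 at that age rests on the division by length.

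The Robo receptors separated into Robo3 and the rest. Robo3 had a mean normalized count of 4620 at E13.5 and 118 at E18.5, 32.1-fold lower relative to the median gene. Among the 17785 genes measured at both ages, only 2 had a lower ratio. Genes that fell below the minimum mean at E18.5 were not ranked. Hbb-y, with a mean of 21476 at E13.5 and 7.95 at E18.5, was left out in this way. At E13.5 the level of Robo3 per kb was above that of Robo2 (675 against 582) when all exons were counted, but not with the longest transcript, where Robo2 stood at 1.25 times Robo3. At E18.5 Robo2 stood at 41.8 times Robo3. Robo1 had 16160 and 10355 (log2 ratio -0.36), and Robo2, its partner in most Slit-responsive axons, had 9885 and 12243 (0.59). Robo1 was ahead of Robo2 per kb at E13.5, and Robo2 was at 1.15 times Robo1 at E18.5. Robo4, the endothelial member, had 370 and 237 (-0.36). Robo3 thus made up 29.3% of the summed Robo level per kb at E13.5 and 1.22% at E18.5.

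The srGAPs, which act on Rac and Cdc42 below Robo and shape the membrane of migrating neurons, were abundant at both ages. Srgap3 led per kb, with 1605 counts per kb at E13.5 and 1208 at E18.5. Its mean normalized count was 15816 and 11897, a log2 ratio of -0.13 relative to the median gene. Srgap2, whose loss changes the maturation of dendritic spines, had 4062 and 7373, 2.21-fold higher. As deposited it was not past 2-fold (log2 ratio 0.86). Srgap1 had 7262 and 7415 (log2 ratio 0.31).

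Robo3 and Robo4 lie tail to tail on chromosome 9 of GRCm38, Robo4 on the plus strand from 37401897 to 37415115 and Robo3 on the minus strand from 37415669 to 37433246, with 0.554 kb between them. Their log2 ratios were -5.01 and -0.36. Reads were assigned without regard to strand, but the annotated exons of the 2 genes do not overlap. Efna4, Efna3 and Efna1 follow each other on the minus strand of chromosome 3, Efna1 from 89271733 to 89281142, Efna3 from 89313899 to 89322965 and Efna4 from 89333390 to 89338028. Efna1 and Efna4 had log2 ratios of -0.75 and -0.98, and Efna3, between them, 1.37. Efna3 was level with Efna4 at E13.5 (0.990 times, per kb) and at 5.06 times Efna4 at E18.5. It shares 14.1% of its exon bases with another annotated gene, and Efna4 10.5%, so part of their reads could be lost or counted elsewhere. Epha8 and Ephb2, with 93.4 kb between them on chromosome 4, had log2 ratios of 0.76 and -1.03.

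The promoters of these 5 neighbours are shown because Robo3 differs in ratio from Robo4 beside it, and Efna3 from Efna1 and Efna4. They are the RefSeq windows on GRCm38.p6 from 250 bases before to 50 bases after the start that lies farthest upstream, 5′ to 3′ on the strand of the gene, with CpG dinucleotides in capitals.
Robo3, chr9:37433126-37433425, minus strand: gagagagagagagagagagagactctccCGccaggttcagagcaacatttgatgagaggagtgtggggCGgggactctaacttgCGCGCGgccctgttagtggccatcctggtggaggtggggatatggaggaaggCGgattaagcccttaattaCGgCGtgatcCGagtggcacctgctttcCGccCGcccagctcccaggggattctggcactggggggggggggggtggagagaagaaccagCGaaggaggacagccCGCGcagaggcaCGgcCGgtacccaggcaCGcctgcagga
Robo4, chr9:37401722-37402021, plus strand: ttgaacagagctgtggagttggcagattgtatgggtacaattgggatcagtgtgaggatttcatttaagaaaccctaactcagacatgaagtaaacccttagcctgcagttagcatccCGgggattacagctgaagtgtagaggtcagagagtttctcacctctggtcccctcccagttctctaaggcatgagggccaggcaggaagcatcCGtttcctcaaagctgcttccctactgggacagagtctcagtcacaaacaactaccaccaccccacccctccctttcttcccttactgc
Efna1, chr3:89280902-89281201, minus strand: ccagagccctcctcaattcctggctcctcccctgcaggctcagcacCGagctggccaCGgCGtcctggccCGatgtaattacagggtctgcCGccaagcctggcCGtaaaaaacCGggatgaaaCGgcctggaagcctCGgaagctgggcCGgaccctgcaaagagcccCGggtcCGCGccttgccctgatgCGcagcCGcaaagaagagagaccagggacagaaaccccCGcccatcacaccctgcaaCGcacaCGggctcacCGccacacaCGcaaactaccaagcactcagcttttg
Efna3, chr3:89322890-89323189, minus strand: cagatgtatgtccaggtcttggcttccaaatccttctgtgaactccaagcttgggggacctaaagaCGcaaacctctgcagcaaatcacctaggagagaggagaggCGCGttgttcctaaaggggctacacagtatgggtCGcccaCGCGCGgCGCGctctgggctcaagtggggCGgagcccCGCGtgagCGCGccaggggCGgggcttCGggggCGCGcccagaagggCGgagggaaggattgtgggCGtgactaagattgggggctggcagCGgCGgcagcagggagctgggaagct
Efna4, chr3:89337979-89338278, minus strand: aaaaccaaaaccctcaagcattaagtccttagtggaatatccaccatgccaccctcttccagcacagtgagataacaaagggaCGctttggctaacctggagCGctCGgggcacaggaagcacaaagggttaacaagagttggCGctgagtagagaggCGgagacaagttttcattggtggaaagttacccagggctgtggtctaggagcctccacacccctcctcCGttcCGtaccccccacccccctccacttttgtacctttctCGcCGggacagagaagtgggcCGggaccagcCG
The windows of Robo3 and Robo4 held 17 and 2 CpGs with a GC content of 63.3% and 50.3%. Those of Efna1, Efna3 and Efna4 held 20, 22 and 11. Another window of Efna3, not shown, held 34, and another of Efna1 held 20. Over the 44 windows found for 39 of the guidance genes the median was 20.5 CpGs, against 7 over all 32851 windows. No window was found for Dcc, Ntn1, Unc5d, Slit1 and Efnb3, so no motif could be looked for in these genes. The hexamer AGGTCA, the core of thyroid hormone response elements, was looked for on both strands because the study is about thyroid hormone. It was present in 4 of the 44 windows (9.09%; Epha2, Ntn4, Ntn5 and Robo4) and in 16.3% of all windows. A direct repeat of it spaced by 4 bases was in 0 of the 44 windows and in 0.0152% of all. These are matches of letters and no evidence of binding.

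The guidance genes were long. Measured from the first to the last annotated base, 23 of the 43 spanned more than 100 kb, which is 53.5%, against 15.9% of 14454 protein-coding genes measured at both ages. The median span was 143 kb against 25.6 kb.

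In 3 lists of partners and effectors, 59 genes were measured at both ages, and relative to the median gene 7 of them (11.9%) were at least 2-fold higher and 0 at least 2-fold lower at E18.5, against 12.1% and 5.61% of all genes. With the means as deposited the 7 were the same genes, and 5 were at least 2-fold lower, namely Vav3, Gpc3, Rgmb, Abl1 and Cxcr4. Of 20 genes of Eph and ephrin signalling, 11 were higher and 9 lower, with a median log2 ratio of 0.03. Ngef (ephexin), the exchange factor that EphA receptors activate to collapse growth cones, had a mean of 154 at E13.5 and 814 at E18.5, 6.43-fold higher. Grip2, a scaffold that binds ephrin-B tails, had 387 and 967 (3.04-fold higher), and Cntnap1, a paranodal protein, had 196 and 583 (3.63-fold). Vav3 was the lowest in ratio, with 1334 and 555 (log2 ratio -0.98), and Fyn, the Src family kinase below several of these receptors, had 5198 and 5958 (0.48).

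Of 19 partners of netrin and its receptors, 10 were higher and 9 lower, with a median of 0.22. Lrrc4c, the ligand of netrin-G1, had 922 and 2279, 3.01-fold higher, in the same direction as Ntng1. Dscaml1 (1025 and 2279, 2.71-fold) and Ablim1 (2554 and 6145, 2.93-fold), an actin-binding protein, were higher too. Draxin, a secreted ligand of Dcc, had 4998 and 3393 (log2 ratio -0.27), and the neogenin ligand Rgmb had 10552 and 5254 (-0.72). Of 20 partners of Slit and Robo, 12 were higher and 8 lower, with a median of 0.16. Sdc3, a heparan sulfate proteoglycan, was the only one past 2-fold, with 8336 and 20378 (2.98-fold higher). Nell2, a ligand of Robo3, had 6494 and 8444 (0.66), so that ligand and receptor differed in direction. Abl1, the kinase that phosphorylates Robo1, had 5704 and 2640 (-0.83).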

How the data were processed

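RNA of 14 whole fetal brains was sequenced as single-end reads from ribosome-depleted libraries in 2 batches. The authors trimmed the reads with cutadapt 3.1, aligned them to GRCm38 (GENCODE VM22) with STAR 2.5.3a, assigned them to genes with HTSeq (union mode, unstranded), applied ComBat-seq for the batches and compared the genotypes within each age with DESeq2 1.30.1. The batch of each library is not given in the sources used here. The authors' deposited mean normalized count is a signal: the mean over all libraries of an age after division by size factors. The other columns of the authors' tables hold their own comparison of the genotypes (log2 fold change, its standard error, Wald statistic, p-values) and were not used. The number of columns of single samples left unused was 0. The tables used here do not hold the depth of each library.

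Ratios between the ages were computed with numpy 2.4.6 and pandas 2.3.3 (Python 3.11.15) over 17785 genes with a mean of at least 10 at both ages and centred on their median, without a pseudocount. For a symbol shared by several of the 41934 entries (179 entries), the highest mean was used. Levels of different genes were compared per kb of the union of exons in GENCODE M21, which matched 41897 entries by identifier. The genes, families, lists and alternatives were chosen with earlier results of these data known. The genes named are all 44 guidance genes, with the leading gene of each family per kb and those past 2-fold described first, and, from 3 lists of 20 partners and effectors, those past 2-fold under either scale and a few of known role chosen after their values were seen. From 12 lists of 5 tissue markers 3 genes (Gfap, Col2a1 and Hbb-y), also chosen after their values were seen, are named. Promoter windows are from RefSeq.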

Additional observations from a re-analysis of the deposited data

How the results depend on the processing

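The tables used here hold no error and no value of a single library, so differences between the ages are descriptions. Leaving out each replicate in turn was not run, because the means pool all libraries of an age. No paired analysis was possible because the tables used here carry no column of a single sample. A value was taken to have moved when it changed by more than 1.5 times. The number of guidance genes with a mean of at least 10, 43 at both ages, was 44 at a minimum of 5, and 43 at E13.5 and 42 at E18.5 at a minimum of 50. The 5 genes at least 2-fold higher became 3 without rescaling of the ages (Unc5a and Srgap2 no longer passed) and 11 at 1.5-fold. The 10 at least 2-fold lower ranged from 10 to 14 over all alternatives, 1.5-fold among them. The share of all genes past 1.5-fold is not given here, so the counts at 1.5-fold have no background to be set against. No gene past 2-fold changed its direction under the 4 other scales; Efnb2, Ntn3 and Unc5c, all within 2-fold, had the opposite sign without rescaling, and Unc5c also under the summed per-length level. Without division by length the share of the summed level was 3.14% at E13.5 and 2.60% at E18.5 for ephrin-A (9.26% and 7.98% per kb), 7.28% and 8.08% for ephrin-B (15.0% and 16.3%), and 17.7% and 17.3% for Robo (11.2% and 8.94%). With the longest transcript Robo had 13.8% at E18.5. The leading gene of a family was the same in 20 of 20 cases with the longest transcript and changed in 6 of 20 without division by length.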
